A study of Mus musculus with 14 samples.

Results

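The myeloid microRNA loci were 5 mouse microRNA genes, Mir223, Mir155, Mir146 (the gene of miR-146a), Mir21a and Mir142. Each was taken as its RefSeq hairpin on GRCm38 with 30 kb added to each side, and every transcription factor peak overlapping that window by at least 1 bp was kept. This gave 76 of the 158488 peaks in 14 peak lists, and the 5 genes were 5 of 1228 annotated microRNA genes. The lists came from ChIP-seq on cells differentiated in vitro from a mouse embryonic stem cell line of strain 129 that carries a GFP reporter at Brachyury. Mesoderm (MES, Bry.GFP+ and FLK1-) was probed for C/EBPβ and ELK4, hemangioblast (HB, Bry.GFP+ and FLK1+) for C/EBPβ and GATA2, and hemogenic endothelium (HE, Tie2+/cKit+/CD41-) for C/EBPβ. Hematopoietic progenitors (HP, CD41+) were probed for C/EBPβ, GATA1, GATA2, GFI1B, RUNX1 and PU.1, and macrophages (MAC, CD11b+, grown on from CD41+ cells) for C/EBPβ, RUNX1 and PU.1. All cells carried the reporter, none received a treatment in the labels, and each factor and stage had 1 list, so that no replicate spread exists and no difference below was tested.

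MicroRNAs are cut from hairpins in longer host transcripts, so the host promoter and its enhancers set where transcription factors can act on them. The short mature strand pairs with messenger RNAs through its seed, bases 2 to 8, and lowers their translation and stability. In blood, miR-223 is a microRNA of granulocytes and monocytes, miR-155 and miR-146a rise in activated immune cells and respectively promote and restrain inflammatory signalling, miR-142 is a marker of nearly all blood cells, and miR-21 is widely expressed and induced in activated macrophages. PU.1 (gene Spi1) is an ETS factor needed for myeloid cells, C/EBPβ is a bZIP factor of macrophages and stress responses, GATA2 acts in stem and progenitor cells, and GFI1B is a repressor of early blood development.

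The mature sequences are shown because they define what each locus makes. They are RefSeq entries for GRCm38.p6, all 5 genes matched, and capitals mark the seed.
miR-223-5p: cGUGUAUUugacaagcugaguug
miR-223-3p: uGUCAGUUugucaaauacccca
miR-155-5p: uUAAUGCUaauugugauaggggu
miR-155-3p: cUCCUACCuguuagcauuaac
miR-146a-5p: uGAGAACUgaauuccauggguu
miR-146a-3p: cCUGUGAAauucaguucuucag
miR-21a-5p: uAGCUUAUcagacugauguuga
miR-21a-3p: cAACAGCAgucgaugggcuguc
miR-142a-5p: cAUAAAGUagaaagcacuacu
miR-142a-3p: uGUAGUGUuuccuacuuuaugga
No seed was shared between the 5 genes. Outside them, the seed of miR-146a-5p was also that of miR-146b-5p, and the seed of miR-21a-5p was also that of miR-21c. The hairpins lie at chrX:96242817-96242926 for Mir223, chr16:84714140-84714204 for Mir155, chr11:43374397-43374461 for Mir146, chr11:86584067-86584158 for Mir21a and chr11:87756864-87756927 for Mir142. Mir146 and Mir21a are read from the minus strand and the other 3 from the plus strand.

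Binding at the 5 loci was recorded in progenitors and macrophages, and 61 of the 76 peaks were macrophage peaks of PU.1 or C/EBPβ. Most peaks of the whole series were of these lists too, with 82866 of MAC PU.1 and 55471 of MAC C/EBPβ among 158488. MAC PU.1 had 6 peaks at Mir223, 6 at Mir155, 7 at Mir146, 8 at Mir21a and 8 at Mir142. MAC C/EBPβ had 5, 2, 4, 10 and 5 peaks at the same loci in the same order. HP PU.1 had 5 peaks at Mir142, 3 at Mir146, 2 at Mir21a, 1 at Mir155 and 0 at Mir223. The other progenitor peaks were few, with 1 of C/EBPβ at Mir223, 1 of GFI1B at Mir155 and 2 of GATA2 at Mir142. In all, 17 of the 70 combinations of list and locus held a peak.

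**Figure D1:**
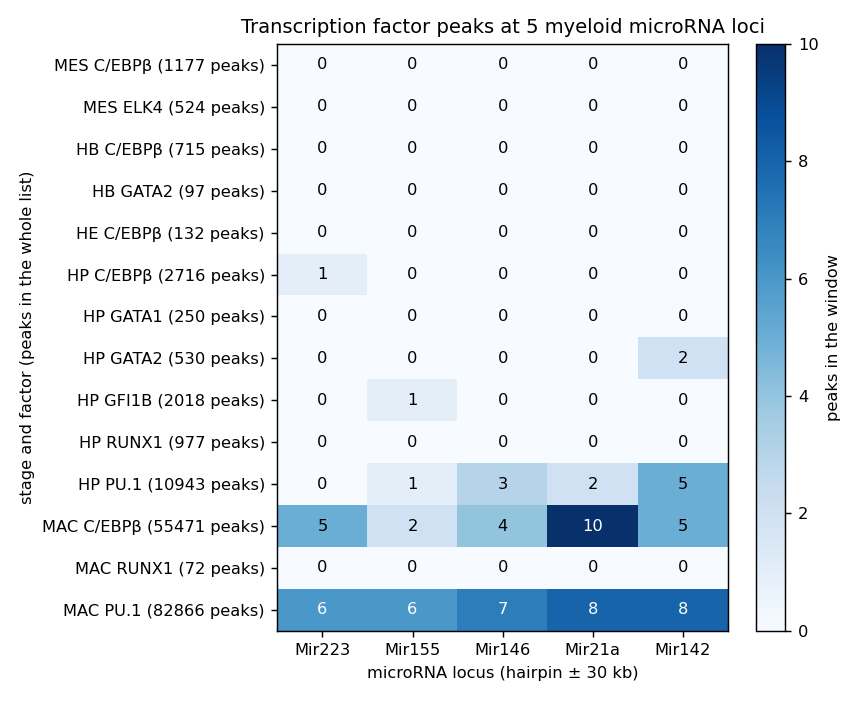
Number of peaks within 30 kb of each hairpin (columns) in each of the 14 lists (rows, with the number of peaks in the whole list). The MAC PU.1 row runs from 6 to 8 and the MAC C/EBPβ row from 2 to 10, while 8 rows are at 0 for every locus.

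Most of that pattern has to be read against the lengths of the lists, since the authors chose each list's threshold by eye and a longer list is not more binding. A MAC PU.1 peak fell in the window of all 5 loci, and in that of 77.4% of all 1228 microRNA genes. MAC C/EBPβ also reached all 5, against 73.0% of all microRNA genes, and the pair of them together reached all 5, against 68.2%. HP PU.1 reached 4 of the 5 loci, against 34.2%. HP C/EBPβ reached 1 locus against 11.7%, HP GFI1B 1 against 9.45% and HP GATA2 1 against 3.34%. Among the lists with no peak at any of the 5 loci, the shares of all microRNA genes reached were 7.33% for HP RUNX1, 2.04% for HP GATA1, 0.651% for MAC RUNX1, 4.48% for MES C/EBPβ, 5.13% for MES ELK4, 2.52% for HB C/EBPβ, 0.0814% for HB GATA2 and 1.14% for HE C/EBPβ. These lists held 72 to 1177 peaks, and each of them gave 0 peaks at most microRNA genes. A count of 0 for RUNX1, GATA1 or ELK4 at the 5 loci therefore does not show that the factor was absent there.

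Ranked by the number of peaks over all lists within 30 kb, the 5 loci were above the median of 6 peaks per microRNA gene but were not the most crowded. Mir21a and Mir142 had 20 peaks each, and 92.7% of microRNA genes had fewer. Mir146 had 14 peaks, Mir223 had 12 and Mir155 had 10, with 80.1%, 73.6% and 64.5% of microRNA genes below them. The highest count of any microRNA gene was 39. For 3 loci this place turned with the window, since with 100 kb to each side 39.8% of microRNA genes had fewer peaks than Mir223, 39.8% fewer than Mir155 and 46.0% fewer than Mir146, while Mir21a stood at 86.1% and Mir142 at 91.0%. The order changed with the factor. For MAC C/EBPβ, 98.9% of microRNA genes had fewer peaks than the 10 at Mir21a, but only 44.1% had fewer than the 2 at Mir155. For HP PU.1, 99.1% had fewer than the 5 at Mir142 and 95.5% fewer than the 3 at Mir146. In the rows before the middle of the HP PU.1 list these counts were 2 at Mir142 and 2 at Mir146, so that the order of these loci rests on the later rows. MAC PU.1 separated the 5 loci least, with 67.8% to 82.7% of microRNA genes below them.

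**Figure D2:**
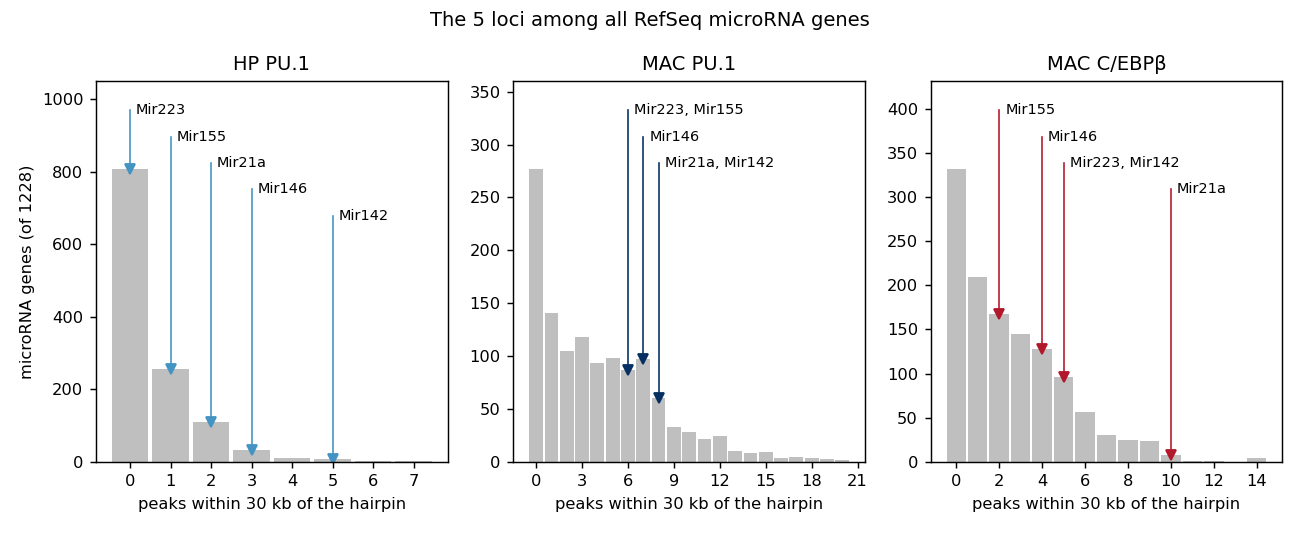
Histograms of the number of peaks within 30 kb of the hairpin (x axis) over all 1228 RefSeq microRNA genes (y axis, number of genes) for HP PU.1, MAC PU.1 and MAC C/EBPβ, with arrows at the 5 loci. Mir142 lies in the tail of the HP PU.1 counts and Mir21a in that of the MAC C/EBPβ counts, whereas all 5 lie in the body of the MAC PU.1 counts.

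Of the 76 peaks, 45 were centred upstream of the 5′ end of the hairpin in the direction of transcription and 31 downstream, at a median distance of 11.1 kb. By the RefSeq annotation, 48 centres were intergenic, 17 lay in introns and 11 in exons. At Mir223, 11 of 12 peaks were upstream, whereas at Mir146 10 of 14 were downstream. Overlapping peaks merged into 46 regions, of which 20 (43.5%, exact 95% interval 28.9 to 58.9) were in at least 2 lists and 8 (17.4%) in at least 3. Over all 14 lists, 28.0% of the 117293 merged regions were in at least 2 lists and 5.44% in at least 3. Intervals here and below are Clopper-Pearson intervals, and they cover counting error alone. They take single regions or peaks as independent, although these cluster in 5 windows.

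**Figure D3:**
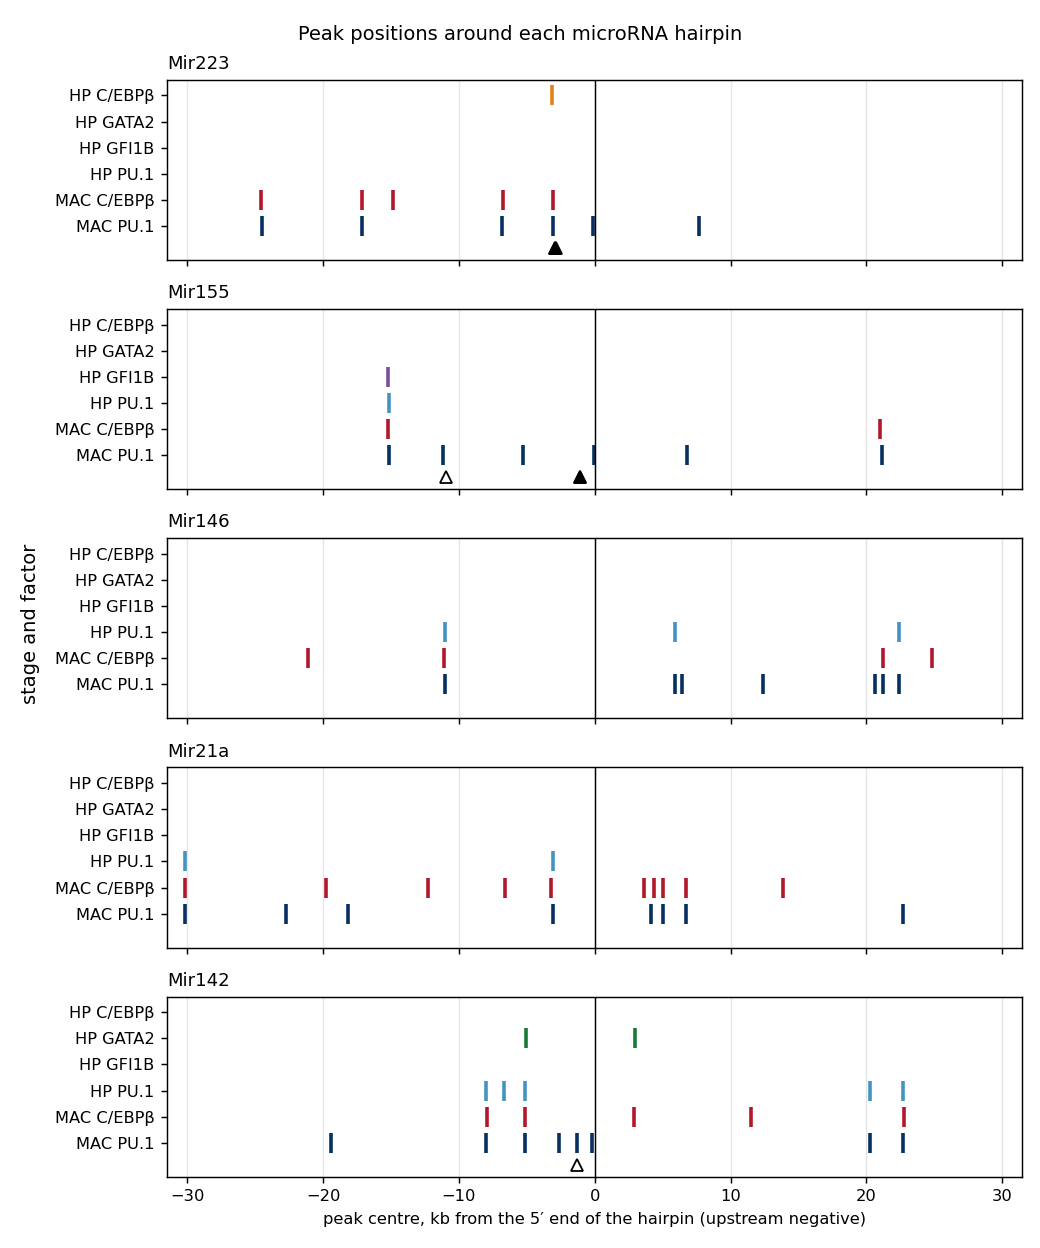
Centres of all peaks at the 5 loci, in kb from the 5′ end of the hairpin (x axis, upstream to the left), for the 6 lists with a peak (rows). Filled triangles mark starts of RefSeq host transcripts and open triangles further GENCODE host starts within the window, and the starts of the Vmp1 transcripts that contain Mir21a lie outside it. Progenitor ticks stand above macrophage ticks at all but 1 of the HP PU.1 positions.

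Mir223 was the 1 locus with an HP C/EBPβ peak, and that peak sat at its host promoter. It stood at 53.2% of the rows of its list and is lost when the rows before the middle of each list are used alone. The meaning of the row order is not known, so this place does not show a weaker peak. The host transcript F630028O10Rik starts at chrX:96239926, 2891 bp upstream of the hairpin, on the plus strand. The HP C/EBPβ peak was centred 224 bp upstream of that start, the MAC C/EBPβ peak 156 bp and a MAC PU.1 peak 188 bp upstream of it. The 3 peaks merged into chrX:96239503-96239969, the only region of this locus found in 3 lists. The 2 C/EBPβ centres were 67 bp apart, against a median of 19 bp for HP C/EBPβ peaks that overlap a MAC C/EBPβ peak anywhere. No HP PU.1 peak was listed within 30 kb of Mir223. The promoter is shown because all 3 peaks overlap it, from 250 bases before to 50 bases after the start (GRCm38, chrX:96239676-96239975, plus strand, RefSeq).
F630028O10Rik promoter: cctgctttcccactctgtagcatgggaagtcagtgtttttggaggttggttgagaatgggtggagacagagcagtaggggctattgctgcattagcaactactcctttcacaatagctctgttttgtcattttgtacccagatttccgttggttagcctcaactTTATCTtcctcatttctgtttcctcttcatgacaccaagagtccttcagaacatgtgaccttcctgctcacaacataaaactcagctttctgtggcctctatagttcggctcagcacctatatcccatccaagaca
Capitals mark a match to the GATA consensus AGATAA, here on the minus strand, which is found in 11.2% of 32851 RefSeq promoter windows of this length, and in 19.4% of all HP C/EBPβ, 17.5% of all MAC C/EBPβ and 17.3% of all MAC PU.1 peaks, which are 400 bases long against 300 for the promoter windows. Both strands were searched for 8 consensus strings, namely the GATA string, TGANTCA for AP-1, TTGCNNAA for the C/EBP family, TGTGGTT for the RUNX family, CCGGAAGT for ELK4, GAGGAAGT for PU.1, AATCNNNGC for GFI1B and an NF-κB consensus. The PU.1 and ELK4 strings share their last 6 letters. The whole merged region held 2 GATA matches and none of the C/EBP or PU.1 strings. With the shorter strings used as an alternative, all 3 peaks held a match for their own factor. There was 1 in the HP C/EBPβ peak, 1 in the MAC C/EBPβ peak and 2 in the MAC PU.1 peak. Such shorter strings were found in 78.9% of the 76 peaks at the loci.

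A second MAC PU.1 peak at Mir223, chrX:96242465-96242864, covered 48 of the 110 bases of the hairpin and lay in an exon of the host. Further upstream, MAC PU.1 and MAC C/EBPβ peaks overlapped each other at 6.8, 17.1 and 24.6 kb, so that 4 of the 5 MAC C/EBPβ peaks at Mir223 lay on a PU.1 peak. The remaining C/EBPβ peak was 14.8 kb upstream and the remaining PU.1 peak 7.6 kb downstream, in an intron of Vsig4, which encodes a complement receptor of macrophages. Of the 4 overlapping pairs at Mir223, only that at 24.6 kb had both peaks before the middle of their lists.

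Mir155 had the fewest peaks and the fewest C/EBPβ peaks, but 1 of its regions held peaks of 4 lists. Both progenitor peaks of that region stood past the middle of their lists, GFI1B at 65.1% and PU.1 at 61.3% of the rows, and with the earlier rows alone macrophage peaks remained there and no progenitor peak. This region, chr16:84698688-84699204, lies 15.2 kb upstream of the hairpin and held peaks of HP GFI1B, HP PU.1, MAC C/EBPβ and MAC PU.1. It was the only GFI1B peak and the only HP PU.1 peak at the locus. The centres of GFI1B and HP PU.1 were 76 bp apart and those of HP PU.1 and MAC PU.1 5 bp apart. Over the whole lists, 10.4% of GFI1B peaks overlapped an HP PU.1 peak. The central 300 bases are shown because 2 progenitor and 2 macrophage lists meet there (GRCm38, chr16:84698797-84699096, plus strand).
Mir155 upstream region: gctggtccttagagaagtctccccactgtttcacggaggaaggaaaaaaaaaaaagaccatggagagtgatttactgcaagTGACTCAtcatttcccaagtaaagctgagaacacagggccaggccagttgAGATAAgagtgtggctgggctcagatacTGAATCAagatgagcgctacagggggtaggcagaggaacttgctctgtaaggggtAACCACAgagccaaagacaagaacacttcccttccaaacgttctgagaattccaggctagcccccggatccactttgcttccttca
Capitals mark, from left to right, an AP-1, a GATA, an AP-1 and a RUNX match. The GFI1B peak held no AATCNNNGC.

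The start of the Mir155 host depends on the annotation. RefSeq starts Mir155hg at chr16:84713023, 1117 bp before the hairpin, and the nearest MAC PU.1 peak was centred 1042 bp downstream of that start, outside the limit of 1 kb set for a promoter peak. GENCODE M21 adds a transcript that starts at chr16:84703167, and a MAC PU.1 peak at chr16:84702753-84703152 was centred 214 bp upstream of it. The centres of 3 peaks of the upstream region lay 4162 bp (HP PU.1), 4238 bp (HP GFI1B) and 4280 bp (MAC C/EBPβ) upstream of that start. The peak nearest the hairpin, MAC PU.1 at chr16:84713865-84714264, covered all 65 of its bases and is shown for that reason (central 300 bases, chr16:84713915-84714214, plus strand).
Mir155 hairpin peak: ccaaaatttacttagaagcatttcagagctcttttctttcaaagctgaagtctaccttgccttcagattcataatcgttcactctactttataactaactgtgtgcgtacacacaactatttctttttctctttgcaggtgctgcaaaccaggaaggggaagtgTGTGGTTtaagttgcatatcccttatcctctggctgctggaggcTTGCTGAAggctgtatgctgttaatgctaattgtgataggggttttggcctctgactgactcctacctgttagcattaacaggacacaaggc
Capitals mark a RUNX and a C/EBP match, both before the first base of the hairpin. No PU.1 string was found in this peak. The other region with 2 lists, 21.1 kb downstream, lay over the promoter of Mrpl39, a mitochondrial ribosomal protein gene.

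At Mir146, PU.1 accounted for 10 of 14 peaks, and the progenitor peaks were spread over 3 positions. HP PU.1 peaks lay 11.1 kb upstream, 5.9 kb downstream and 22.4 kb downstream of the hairpin, and each coincided with a MAC PU.1 peak, with centres 20, 25 and 3 bp apart. Only the upstream region, chr11:43385302-43385738, also held a MAC C/EBPβ peak. No RefSeq or GENCODE transcript contains the hairpin, so that no host promoter could be named. The nearest RefSeq start upstream on the same strand, of the predicted gene Gm5782, was 44506 bp away, and no peak lay within 2 kb of it. A GENCODE lincRNA of the opposite strand, Gm12148, starts at chr11:43385482, within the upstream region. The central 300 bases of that region are shown because it is the only one at Mir146 in 3 lists (GRCm38, chr11:43385371-43385670, minus strand).
Mir146 upstream region: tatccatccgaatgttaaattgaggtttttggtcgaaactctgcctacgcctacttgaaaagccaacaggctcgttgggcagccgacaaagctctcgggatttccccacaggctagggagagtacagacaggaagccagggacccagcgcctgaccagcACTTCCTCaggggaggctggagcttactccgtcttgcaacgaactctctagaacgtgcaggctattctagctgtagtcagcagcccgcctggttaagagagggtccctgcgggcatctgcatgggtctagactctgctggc
Capitals mark a PU.1 match on the opposite strand. The same string was found in all 3 HP PU.1 peaks at Mir146 and in 4 of its 7 MAC PU.1 peaks, but each of those HP peaks lies on 1 of the MAC peaks. Counted once per site, Mir146 supplied 4 of the 8 PU.1 sites at the 5 loci that held the string. Of the 4 MAC C/EBPβ peaks, 1 held TTGCNNAA, 24.8 kb downstream.

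Mir21a had the most C/EBPβ peaks of the 5 loci, and both regions found in 3 lists lay upstream, in introns of its host Vmp1, which encodes a membrane protein of autophagy. The nearer region, chr11:86587024-86587544, is 3.1 kb upstream of the hairpin and held HP PU.1, MAC PU.1 and MAC C/EBPβ. It lies inside chr11:86586196-86587829, which RefSeq annotates as an enhancer taken from the VISTA collection, and it was the only region of the 5 loci to lie in such an annotated enhancer. The HP and MAC PU.1 centres were 2 bp apart there. The other region, 30.2 kb upstream at chr11:86614116-86614540, crosses the edge of the window. Its HP PU.1 peak stood at 88.6% of the rows of its list and is lost when the rows before the middle are used alone. The central 300 bases of the nearer region are shown because 3 lists and an annotated enhancer coincide there (GRCm38, chr11:86587135-86587434, minus strand).
Mir21a upstream region: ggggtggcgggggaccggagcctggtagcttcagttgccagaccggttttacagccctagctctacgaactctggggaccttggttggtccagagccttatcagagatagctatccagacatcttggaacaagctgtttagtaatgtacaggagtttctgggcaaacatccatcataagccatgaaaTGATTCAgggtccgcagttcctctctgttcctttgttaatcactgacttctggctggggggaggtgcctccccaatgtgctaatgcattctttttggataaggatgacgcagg
Capitals mark an AP-1 match, a string found in 7.81% of RefSeq promoter windows of this length, and in 23.3% of all MAC C/EBPβ and 15.8% of all MAC PU.1 peaks.

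Downstream of Mir21a, 3 regions between 4.3 and 6.7 kb from the hairpin held MAC PU.1 and MAC C/EBPβ. At chr11:86578898-86579297 the 2 peaks had the same coordinates. Of the 10 C/EBPβ peaks at Mir21a, 5 overlapped a PU.1 peak and 5 did not. RefSeq gives 3 starts for host transcripts of Vmp1, between 87023 and 99678 bp upstream of the hairpin and outside the window. A MAC PU.1 peak was centred 176 bp upstream of the farthest start and another 36 bp downstream of the nearest, and no C/EBPβ peak lay within 1 kb of any of them. No progenitor peak lay within 5 kb of them either. Further GENCODE starts were looked for only inside peak regions. Of Vmp1, 2 shorter transcripts start there, at chr11:86602263 and chr11:86602295, under a MAC PU.1 peak at chr11:86602151-86602550, but neither contains the hairpin. Vmp1 starts elsewhere in the window were not counted.

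Mir142 held the most progenitor peaks of the 5 loci, with 5 HP PU.1 and 2 HP GATA2 peaks beside 8 MAC PU.1 and 5 MAC C/EBPβ peaks. The region in 4 lists, chr11:87751514-87752016, lies 5.1 kb upstream of the hairpin and held HP GATA2, HP PU.1, MAC PU.1 and MAC C/EBPβ. Its HP PU.1 peak stood at 52.8% of the rows of its list. With the rows before the middle of each list alone, that peak is lost and the 3 other peaks remain. The GATA2 centre was 72 bp from that of HP PU.1. Over the whole lists, 19.8% of HP GATA2 peaks overlapped an HP PU.1 peak, at a median of 71 bp. The second GATA2 peak, chr11:87759647-87760046, lay 3.0 kb downstream in an exon of the neighbouring gene Tspoap1 and overlapped a MAC C/EBPβ peak but no PU.1 peak. The central 300 bases of the region are shown because both GATA matches of the region fall in them (GRCm38, chr11:87751616-87751915, plus strand).
Mir142 upstream region: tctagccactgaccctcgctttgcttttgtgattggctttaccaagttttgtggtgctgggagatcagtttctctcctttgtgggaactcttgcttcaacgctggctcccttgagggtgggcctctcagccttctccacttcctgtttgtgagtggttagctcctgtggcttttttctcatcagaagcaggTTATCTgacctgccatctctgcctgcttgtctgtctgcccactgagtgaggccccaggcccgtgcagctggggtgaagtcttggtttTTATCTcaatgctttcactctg
Capitals mark the 2 GATA matches, both on the opposite strand. Both GATA2 peaks at Mir142 held AGATAA, against 57.9% of the whole HP GATA2 list. None of the 3 other peaks of this region held the string of its own factor.

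Between that region and the Mir142 hairpin only MAC PU.1 was recorded. Its peaks were centred 2.6, 1.3 and 0.2 kb upstream, and the last of them, chr11:87756461-87756860, ended 3 bases before the hairpin. RefSeq gives no transcript that contains Mir142, and its nearest start upstream on the same strand is that of Supt4a, a transcription elongation factor gene, 19313 bp away, with a MAC PU.1 peak centred 138 bp upstream of it. GENCODE gives a host, Mir142hg, that starts at chr11:87755577, and the MAC PU.1 peak at 1.3 kb was centred 10 bp upstream of that start. The peak beside the hairpin is shown because it is the only peak within 1 kb of Mir142 (central 300 bases, chr11:87756511-87756810, plus strand).
Mir142 hairpin peak: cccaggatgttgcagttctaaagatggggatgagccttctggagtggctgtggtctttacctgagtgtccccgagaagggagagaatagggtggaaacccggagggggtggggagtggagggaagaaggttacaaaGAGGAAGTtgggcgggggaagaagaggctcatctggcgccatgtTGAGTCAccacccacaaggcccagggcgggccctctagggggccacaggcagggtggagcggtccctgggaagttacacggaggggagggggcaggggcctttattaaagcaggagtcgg
Capitals mark a PU.1 and an AP-1 match. The PU.1 string is found in 24.4% of all MAC PU.1 peaks and in 3.20% of RefSeq promoter windows of 300 bases.

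Across the 5 loci, a MAC PU.1 peak lay on the hairpin or within 1 kb of it at Mir223, Mir155 and Mir142, which is 3 of 5 genes, against 17.8% of all microRNA genes. No C/EBPβ peak of either stage lay that close at any of the 5. A peak within 1 kb of the start of a RefSeq host was found at 2 loci, Mir223 and Mir21a, and at 4 with the GENCODE hosts of Mir155 and Mir142 added. Among all 819 microRNA genes with a RefSeq host, 71.6% had a peak of any list at a host start, and among 847 with a GENCODE host 71.9% did, so that the members' counts were read against a high background. MAC PU.1 was present at 2 of the 3 RefSeq-hosted members, against 64.6%, and at all 4 GENCODE-hosted members, against 64.1%. The MAC PU.1 peaks at the starts of F630028O10Rik (84.1% of the rows) and Mir142hg (66.6%) stand past the middle of the list, so that in its earlier rows PU.1 is left at the Vmp1 and Mir155hg starts. MAC C/EBPβ was present at Mir223 alone, 1 of 3 RefSeq-hosted members against 38.6% and 1 of 4 GENCODE-hosted members against 38.4%.

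Nearly all HP PU.1 positions at the loci were found again in macrophages. Of the 11 HP PU.1 peaks at the loci, 10 (90.9%, interval 58.7 to 99.8) overlapped a MAC PU.1 peak, against 97.0% (96.6 to 97.3) of the whole HP PU.1 list. The exception was chr11:87749950-87750349, 6.7 kb upstream of Mir142. The 10 pairs of centres were 2 to 25 bp apart with a median of 6 bp, against a median of 13 bp over the whole list. In the other direction, 10 of 35 MAC PU.1 peaks at the loci (28.6%, interval 14.6 to 46.3) overlapped an HP PU.1 peak, against 12.8% of the whole MAC PU.1 list. At Mir223 none of the 6 MAC PU.1 peaks had a progenitor counterpart.

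In macrophages, 16 of 26 C/EBPβ peaks at the loci (61.5%, interval 40.6 to 79.8) lay on a PU.1 peak, against 42.5% of the whole list. Seen from PU.1, 16 of 35 peaks (45.7%, interval 28.8 to 63.4) lay on a C/EBPβ peak, against 28.5% of the whole list. Of these shares over whole lists, 42.5% lay inside the interval at the loci, 28.5% lay just below its interval, and the 12.8% given above for MAC PU.1 on HP PU.1 lay below its own. The peaks come from 5 windows and are not independent, so these places do not establish a difference from the whole lists, which was not tested. The median distance between centres was 42 bp at the loci and 65 bp over the whole list. All 16 pairs lay between 0 and 219 bp apart, both extremes at Mir21a. The loci differed in this, with 4 of 5 C/EBPβ peaks on PU.1 at Mir223, 2 of 2 at Mir155, 2 of 4 at Mir146, 5 of 10 at Mir21a and 3 of 5 at Mir142. In the rows before the middle of the MAC lists, 66.7% of 15 C/EBPβ peaks lay on PU.1. At Mir223 only the pair 24.6 kb upstream was then left.

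**Figure D4:**
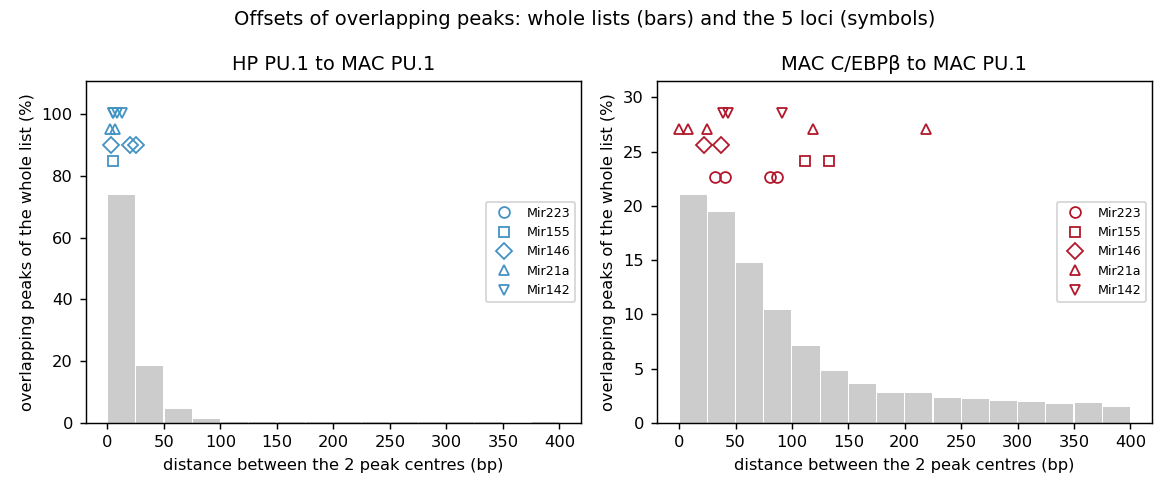
Distance in bp between the centres of overlapping peaks (x axis) for HP PU.1 against MAC PU.1 and for MAC C/EBPβ against MAC PU.1, as the percentage of all overlapping peaks of the whole list (bars, 25 bp each) and for the single pairs at each locus (symbols, placed above the bars with no meaning in height). The PU.1 pairs at the loci lie within 25 bp, and the C/EBPβ to PU.1 pairs range from 0 to 219 bp.

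The string of a peak's own factor was found at the loci at a share close to that of the lists the peaks came from. The string of the peak's own factor was present in 25 of 76 peaks (32.9%, interval 22.5 to 44.6), against 34.6% in the whole lists weighted by how many peaks each had at the loci, and in 9.21% of windows moved 2 kb to either side of the peaks. MAC C/EBPβ peaks held TTGCNNAA in 11 of 26 cases, or 42.3% against 41.9% in the whole list. MAC PU.1 peaks held GAGGAAGT in 8 of 35 cases, or 22.9% against 24.4%. HP PU.1 peaks held it in 4 of 11 cases, or 36.4% against 42.1%. Overlapping peaks were each counted here, and the 12 PU.1 peaks with the string stood at 8 separate sites. The pooled share and its interval make no allowance for this. The single HP C/EBPβ peak and the single HP GFI1B peak held no match to the string of their own factor. With the shorter strings the HP C/EBPβ peak held 1 match and the HP GFI1B peak 0. Strings of other factors lay further from the whole lists in places, with AGATAA in 30.8% of the MAC C/EBPβ peaks against 17.5%, AGATAA in 36.4% of the HP PU.1 peaks against 19.9% and TGANTCA in 27.3% of the HP PU.1 peaks against 1533 of 10943. The whole-list share fell inside the exact interval in each of these 3 cases (14.3 to 51.8, 10.9 to 69.2 and 6.02 to 61.0).

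**Figure D5:**
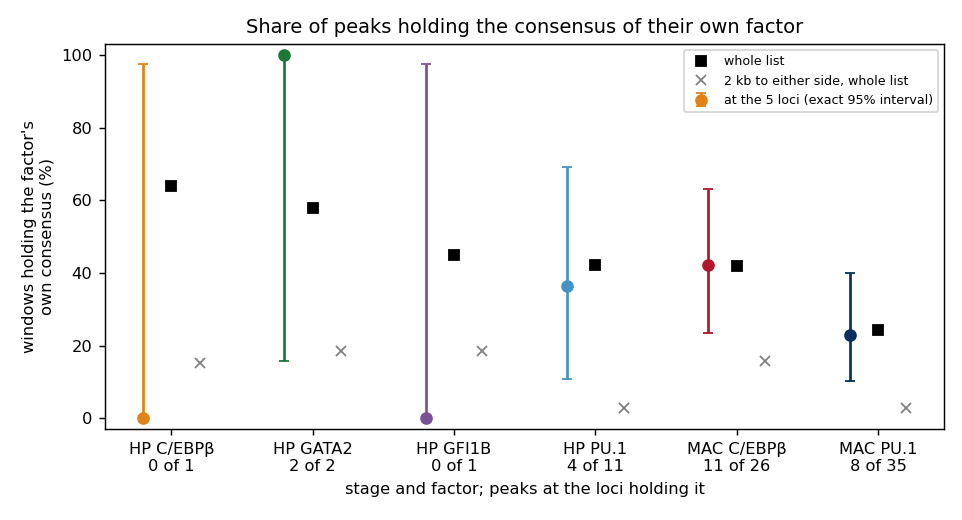
Percentage of peaks holding the consensus string of their own factor (y axis) for the 6 lists with a peak at the loci (x axis). Circles with exact 95% intervals are peaks at the 5 loci, squares the whole list and crosses windows 2 kb to either side of all its peaks. The whole-list value lies within the interval at the loci for every list shown.

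The files give no height or score, but the order of their rows was not neutral, since the share of peaks with their own consensus fell from 38.7% in the first 10% of the MAC PU.1 rows to 18.3% in the last 10%, and from 58.9% to 36.8% for MAC C/EBPβ. For HP PU.1 this share fell from 55.3% to 34.6%. For HP C/EBPβ it was 77.2% in the first 10% of rows, 64.2% in the 10% just before the middle and 58.8% in the 10% just after. For HP GFI1B these shares were 58.4%, 44.8% and 43.6%. HP GATA2 was not examined in this way. A place past the middle is therefore a description and does not show a weaker peak. The sources used here do not say what the order is. Among the MAC PU.1 peaks at the loci, the earliest was that of the 4-list region at Mir142, in row 897 of 82866. Those of Mir21a 5.1 kb downstream and 3.1 kb upstream followed at 3.12% and 3.41% of the list, and that of Mir146 22.4 kb downstream at 3.91%. The peaks at the Mir223 promoter were placed unlike each other, MAC C/EBPβ at 9.45% of its list and MAC PU.1 at 84.1%. The peaks over or beside the hairpins stood at 9.39% for Mir223, 22.9% for Mir155 and 29.2% for Mir142.

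A list of 32 other microRNA genes of blood cells, all found in RefSeq, set these loci among their kind. Their windows merged into 26 separate ones, since genes of 1 cluster share peaks. The shares of all microRNA genes given beside them count each gene of a cluster singly, so that these shares are not in like units. MAC PU.1 and MAC C/EBPβ each reached 24 of the 26 windows (92.3%), against 77.4% and 73.0% of all microRNA genes, and HP PU.1 reached 12 (46.2%), against 34.2%. The shorter lists reached fewer windows, and with 5 loci their counts cannot be set apart from those of the members. HP GFI1B reached 7 windows (26.9%, against 9.45% of all microRNA genes), those of Mir144/Mir451a, a red cell cluster, Mir126a, Mir150, Mir146b, Mir10b, Mir196b and Mir23a/Mir27a/Mir24-2. MES ELK4 reached 4 windows (15.4%, against 5.13%), HP RUNX1 3 (11.5%, against 7.33%) and MAC RUNX1 1 (3.85%, against 0.651%), that of Mir23a/Mir27a/Mir24-2. HP GATA1, HP GATA2 and HP C/EBPβ reached 2 windows each (7.69%, against 2.04%, 3.34% and 11.7%), Mir144/Mir451a and Mir150 for GATA1, Mir10b and Mir150 for GATA2, and Mir181a-2 and Mir130a for C/EBPβ. The median number of peaks over the 32 genes was 9.5, and Mir155, with 10, was the member of the 5 closest to it.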

How the data were processed

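Transcription factor ChIP-seq peaks were analysed in 14 lists, 1 per factor and stage, as the authors deposited them. Per the study's methods, the authors aligned reads to mm10 (GRCm38) with Bowtie, kept unique positions, removed duplicates with Picard, called peaks with MACS against the input of the same stage at a threshold set by eye for each list, and refined them with polyPeak. Versions are not given in the sources used here. The deposited files hold positions of 400 bp peaks with no score, so depth was not used and list length is no amount of binding. Peaks were intersected with RefSeq GRCm38 hairpins extended by 30 kb, hosts and promoters (within 1 kb) with Python 3.11.15 and pysam 0.24.0, intervals came from SciPy 1.17.1 and figures from Matplotlib 3.10.9. Intersections were tested on simulated peaks. No test across samples was made. The members and lists were chosen with earlier results of these data known. By rule, the genes named were the 5 members, their hosts and genes holding or nearest to a named region, and named regions were those within 1 kb of a host promoter or hairpin and the 3 per locus in most lists. Further regions, and members of the list of 32 other blood microRNA genes, were named after their values were seen. Alternatives were other window sizes, overlaps, host limits, consensus strings and backgrounds. GENCODE M21 hosts, the host starts of all microRNA genes and the earlier rows of each list were added after seeing the data. Cell identity could not be checked against marker expression, which these lists do not hold.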

Additional observations from a re-analysis of the deposited data

How the results depend on the processing

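The number of peaks at the 5 loci, 76, followed the window, with 37 at 10 kb and 153 at 100 kb to each side, and was 45 in the rows before the middle of each list, an alternative chosen after seeing the data. Loci with a peak at the host promoter went from 2 to 4 with GENCODE hosts, also chosen after seeing the data, and to 3 with those hosts in the rows before the middle of each list. The share of peaks with their own consensus, 32.9%, was 78.9% with shorter strings and 9.21% in windows 2 kb to either side. The median percentile of the loci among microRNA genes, 80.1, was 87.8 with 10 kb, 46.0 with 100 kb and 77.1 with neighbouring microRNA genes joined. In the rows before the middle of each list, HP C/EBPβ at Mir223 and HP GFI1B and HP PU.1 at Mir155 had no peak left, HP PU.1 fell from 5 peaks to 2 at Mir142, from 3 to 2 at Mir146 and from 2 to 1 at Mir21a, MAC C/EBPβ fell from 5 to 2 at Mir223, 2 to 1 at Mir155, 4 to 2 at Mir146, 10 to 7 at Mir21a and 5 to 3 at Mir142, and MAC PU.1 fell from 6 to 3, 6 to 4, 7 to 5, 8 to 5 and 8 to 6 at the same loci. The bound combinations of list and locus (13 to 21 of 70) and the share of HP PU.1 peaks found again (80.0% to 94.1%) moved less. The share of MAC C/EBPβ peaks on PU.1, 61.5%, was 72.7% with 10 kb and 46.2% with centres within 100 bp. With 100 kb it was 47.5%, against 42.5% of the whole list. No paired analysis was possible because each factor and stage has 1 list. With 1 list each, whether a missing peak is missing binding or a strict threshold cannot be told apart.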
